A study of Monascus purpureus with 9 samples.

Results

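Transcript levels of a Monascus purpureus strain lacking Swd3 were compared with those of the wild type over 9028 genes, the rows of a table of 9869 that passed a limit on low values. Swd3 is a subunit of COMPASS, a complex that methylates histone H3 on a lysine near the starts of transcribed genes. In budding yeast, Set1 is the catalytic subunit of the complex, and Swd3 is one of the WD-repeat proteins that its methyltransferase core needs. In filamentous fungi the complex is studied for its bearing on secondary metabolism, the making of compounds such as pigments that growth itself does not need. The design asked how loss of MpSwd3 alters gene expression in this mould, one that makes azaphilone pigments.

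The comparison set 3 libraries of a Swd3 knockout strain against 3 of the wild type (WT). All were RNA-seq libraries of total RNA from mycelium grown for 2 days in PDB medium, and 3 libraries of a Set1 knockout entered the model to estimate the spread and to show where the Swd3 response differs. The labels do not give the parent strain, whether the knockout is 1 transformant, or whether replicate libraries stand for separate cultures. The p-values below therefore rest on the scatter among libraries, which may be technical. Levels are in FPKM (fragments divided by the length of the transcript and by the library's mapped fragments), a relative measure within a library. A change in RNA per cell and a change in the mix of hyphal cells cannot be told apart in such data.

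The genes compared were the rows with at least 1 FPKM in at least 3 of the 6 WT and Swd3 knockout libraries. They numbered 9028 of the 9869 rows in the table, 8503 of them gene_ rows and 525 NewGene_ rows after the prefix of their names, and 841 rows were left out. Of the genes compared, 8498 reached 1 FPKM in at least 1 library of each group, 518 only in the Swd3 knockout and 12 only in WT. The 20 genes just inside the limit reached a value of 1.00 to 1.04 FPKM in the third of their libraries in order of level, with medians of 0.488 FPKM in WT and 1.3 FPKM in the knockout. The 20 just outside it had 0.958 to 0.998 FPKM, with medians of 0.547 FPKM in WT and 1.21 FPKM in the knockout.

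No row could be given a gene name, because the table pairs no row with a name, position or sequence, and 0 rows matched the reference gene list of assembly ASM2599979v1. The Swd3 transcript, the pigment genes and markers of mycelium could therefore not be looked up. As a check of the knockout label, rows were sought that had 1 FPKM or more throughout WT and the Set1 knockout and 0 in every Swd3 knockout library. There were 0 such rows, and 0 with under 0.1 FPKM in place of 0. Among 6305 rows at 5 FPKM or more throughout WT and the Set1 knockout, gene_8239 kept least. Its mean in the Swd3 knockout was 24.3% of the smaller of its WT and Set1 knockout means. The search does not settle the label.

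Libraries of one strain were alike. On log2(FPKM + 1) over the genes compared, Pearson correlations were 0.9924 to 0.9951 within the Swd3 knockout and 0.9932 to 0.9965 within WT, against 0.8817 to 0.8888 between a Swd3 knockout and a WT library. Summed FPKM was 708044 to 712844 in the knockout and 705678 to 715570 in WT, and sequencing depth is unknown. Within the Swd3 knockout, replicate 1 lay on average 0.06 log2 units above the group's mean and replicate 3 lay 0.06 below it (-0.06).

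The range of transcript levels was narrower in the Swd3 knockout over the middle of the distribution. The level at the 25th percentile of all rows was 3.13, 3.06 and 3.14 FPKM in WT libraries 1 to 3 and 5.12, 4.83 and 4.59 FPKM in the Swd3 knockout libraries. The level at the 75th percentile went the other way, at 42.3, 40.5 and 42.6 FPKM in WT and 38.6, 36.7 and 35.1 FPKM in the knockout. The groups did not overlap at either point. The ratio of both quartiles was accordingly 13.4 ± 0.186 in WT and 7.59 ± 0.0586 in the knockout (SD, n = 3).

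The lowest rows differed most in relative terms. The 10th percentile stood at 0.387 ± 0.0130 FPKM in WT and 1.39 ± 0.0726 FPKM in the Swd3 knockout, and the 90th at 116 ± 0.899 and 102 ± 4.01 FPKM (SD, n = 3). Each of these differences, and that of the quartile ratio, gave an exact two-sided permutation p of 0.1, the smallest that 3 libraries against 3 allow. The most abundant rows took no smaller a share in the knockout. The 100 most abundant rows of a library held 39.2 ± 0.861% of summed FPKM in WT and 42.5 ± 0.984% in the knockout, with no overlap (exact permutation p = 0.1). The 10 most abundant rows held 18.1 ± 0.499% in WT and 18.9 ± 0.614% in the knockout, and here the groups overlapped (exact permutation p = 0.2).

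**Figure D1:**
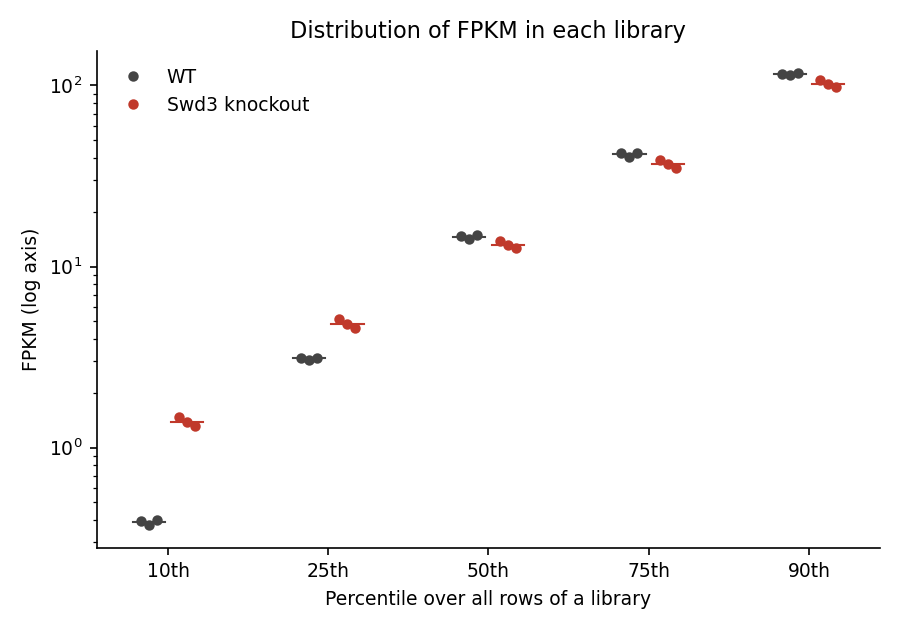
FPKM on a log axis at 5 percentiles over all rows of each library, with 1 point per library and a short line at the mean of 3 libraries. The Swd3 knockout libraries lie above WT at the 10th and 25th percentiles and below WT at the 50th, 75th and 90th, with no overlap at any of the 5.

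Rows without any recorded transcript in one strain were nearly all on the WT side. An exact 0 in a table without counts can be a failed estimate, so such rows are described as listed at 0. Rows listed at 0 numbered 427, 441 and 425 in WT libraries 1 to 3 and 156, 162 and 159 in the Swd3 knockout libraries. Sequencing depth, which bears on such rows, is unknown. Of the 9869 rows, 116 were at 0 in every WT library and above 0 in every Swd3 knockout library, and 2 rows showed the reverse. Of the 116, 38 had at least 1 FPKM in all 3 Swd3 knockout libraries, with a median of 2.77 FPKM and a range of 1.34 to 16.9 FPKM, and 35 of these also had at least 1 FPKM in all Set1 knockout libraries. The reverse, at 0 in all Swd3 knockout and at least 1 FPKM in all WT libraries, was found for 0 rows.

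Loss of Swd3 went with a change in most genes. In the knockout 3400 genes rose, 37.7% of those tested, and 3886 fell, 43% of those tested (limma, Benjamini-Hochberg adjusted p under 0.05). With both directions together 80.7% passed and 1742 genes did not pass. The values of the 2 groups did not overlap for 3381 genes on the higher and 3876 on the lower side, 80.4% of genes, against the 80.7% that passed.

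Large changes were more often rises than falls. The median log2 change was 0.86 among genes that rose and -0.65 among genes that fell, on the log2(FPKM + 1) scale, which understates the change of low genes. Changes under 1.5-fold made up 1067 of the rises and 1700 of the falls, and changes of 1.5-fold to 2-fold a further 866 and 1339. Between 2-fold and 4-fold there were 1077 rises and 761 falls, between 4-fold and 8-fold 284 and 66, and past 8-fold 106 and 20. Genes that reached 1 FPKM only in the knockout had to be higher there. Among the 8498 that reached 1 FPKM in both groups, the medians were 0.76 and -0.65, with 805 rises and 755 falls between 2-fold and 4-fold, 186 and 65 between 4-fold and 8-fold, and 61 and 20 past 8-fold. The median log2 change of all genes was -0.06. Scaling by the median of ratios brought it to 0.00 (a shift under 0.1), with 3657 rises and 3670 falls.

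A test against 2-fold in place of no change asked which genes moved by more than that beyond their error. By this test (limma treat, adjusted p under 0.05) 936 genes were more than 2-fold higher, 10.4% of those tested, and 443 more than 2-fold lower, 4.91%, together 15.3%. For 0 of these genes did WT and Swd3 knockout libraries overlap. With pseudocounts of 0.5 and 0.1 in place of 1 the numbers were 1117 and 1245 higher, and 480 and 525 lower.

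Other genes changed little on log2(FPKM + 1). For 3068 genes, 34% of those tested, the whole 95% interval of the change lay within 1.5-fold in either direction. The bound is on FPKM + 1, so in FPKM itself it is wider for low genes. These comprised 1590 of the 1742 genes that did not pass and 1478 genes with a small change that did. For the remaining 152 that did not pass, the interval reached past 1.5-fold. The standard error of the log2 change had a median of 0.09, with 0.05 and 0.17 at its 5th and 95th percentiles.

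**Figure D2:**
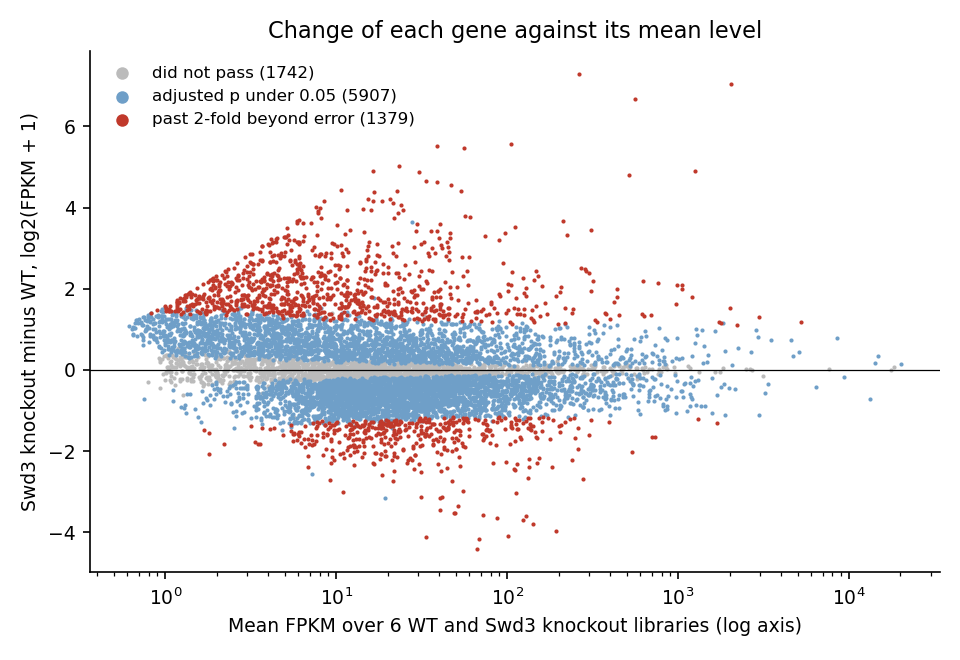
Each point is 1 of the 9028 genes, at its mean FPKM over the 6 WT and Swd3 knockout libraries (log axis) and its difference on log2(FPKM + 1), with colours for genes that did not pass (1742), passed at adjusted p under 0.05 (5907) and were past 2-fold beyond their error (1379). Points at low mean level lie mostly above 0, and the slanted upper edge at the left is set by genes near 0 FPKM in WT.

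Low-level genes mostly rose and middle-level genes more often fell. Genes were classed by their mean FPKM over the 6 libraries. At 1 to 5 FPKM, rises numbered 1080 and falls 199 of 1667 genes, with a median log2 change of 0.65 and quartiles of 0.07 and 1.25. At 20 to 100 FPKM, rises numbered 812 and falls 1690 of 3010 genes, with a median of -0.27 and quartiles of -0.68 and 0.23. These 2 classes stand on either side of the background of 37.7% rising and 43% falling.

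The classes between and above them lay nearer to even. At 5 to 20 FPKM 1064 of 3157 genes rose and 1446 fell, yet 332 were more than 2-fold higher and 162 more than 2-fold lower, so the larger changes there were mostly gains. At 100 FPKM and over 349 of 1089 genes rose and 550 fell, with 79 more than 2-fold higher and 68 more than 2-fold lower. At 20 to 100 FPKM the larger changes were near even, at 192 higher and 201 lower, while at 1 to 5 FPKM they were 330 higher and 12 lower. Over all classes, 271 of the 936 genes more than 2-fold higher reached 1 FPKM only in the knockout and had to be higher there. At 1 to 5 FPKM 1273 of the 1667 genes reached 1 FPKM in both groups, and their larger changes were not counted apart. The size of the typical change shrank with level, from a median absolute log2 change of 0.75 at 1 to 5 FPKM to 0.45 at 100 FPKM and over. The median standard error shrank too, from 0.14 to 0.05, and the 1 to 5 FPKM value takes in genes that had to be higher.

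Part of the low-level rise was fixed by the limit on low values. Of the 518 genes that reached 1 FPKM only in the Swd3 knockout 516 passed, at medians of 2.67 FPKM in the knockout and 0.327 FPKM in WT, and 113 of them had a mean of at least 5 FPKM in the knockout, up to 45.9 FPKM. Among the 8498 genes that reached 1 FPKM in both groups 2884 rose and 3874 fell, with 665 more than 2-fold higher and 439 more than 2-fold lower. Within 1 to 5 FPKM the 1273 genes of this kind had 697 rises and 188 falls. Of 105 genes under 1 FPKM 95 rose and 1 fell. Only 7 of the 105 reached 1 FPKM in both groups, and of these 0 rose and 0 fell. The 95 rises were thus all of genes that had to be higher. With no limit on low values 395 of 866 genes under 1 FPKM rose and 21 fell.

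The direction at low levels depended on how libraries were made comparable. Setting every library to a common total gave 1079 rises and 199 falls at 1 to 5 FPKM, and the median of ratios gave 1112 and 187. Quantile normalization, which forces the same distribution of values on every library, gave 566 rises and 550 falls, with 122 more than 2-fold higher and 46 more than 2-fold lower. At 20 to 100 FPKM it gave 1073 rises and 1371 falls, with a median log2 change of -0.09 against -0.27 without it. More than 2-fold higher in that class were 240 genes, and 134 were more than 2-fold lower. Over all genes quantile normalization gave 3216 rises and 3852 falls, and 742 genes more than 2-fold higher against 419 lower.

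**Figure D3:**
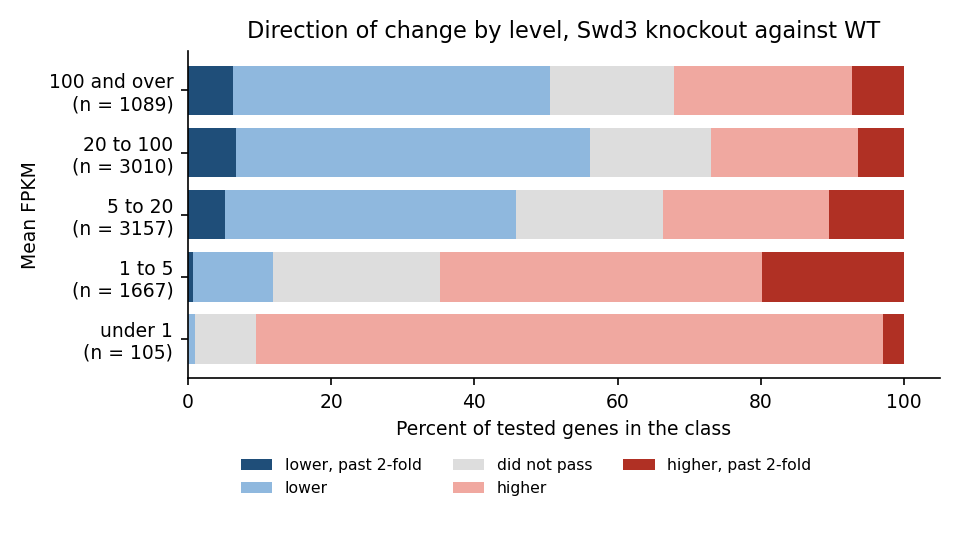
For 5 classes of mean FPKM over the 6 libraries, bars give the percent of tested genes that were lower past 2-fold, lower, not past the test, higher, and higher past 2-fold in the Swd3 knockout. Rises fill most of the 2 lowest classes, where 105 and 1667 genes were tested, and falls are the largest part of the 3 higher classes. In the lowest class only 7 genes reached 1 FPKM in both groups, and its rises were fixed by the limit on low values.

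The NewGene_ rows, a prefix that no source used here defines, had 321 rises and 75 falls among 525, or 61.1% and 14.3%. Over all genes these shares were 37.7% and 43%, and over all genes at 1 to 5 FPKM 64.8% and 11.9%. The NewGene_ rows were rows of low level, at a median of 2.69 FPKM against 18.7 FPKM for gene_ rows. Of these rows 412 reached 1 FPKM in both groups, and among them 216 rose and 68 fell, with a median log2 change of 0.34 against -0.15 for 8086 gene_ rows of that kind. More than 2-fold higher were 60 of the 525, or 11.4%, against 10.3% of gene_ rows and a background of 10.4%. Under quantile normalization 169 rose and 163 fell.

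By the naming rule, which takes the 2 largest rises and falls on the log2 scale, the largest rise was that of gene_1082. It stood at 2.35, 2.59 and 2.25 FPKM in WT libraries 1 to 3 and at 520, 527 and 531 FPKM in the Swd3 knockout libraries. A gene at a low level in every WT library was thus among the well-expressed ones in every knockout library, 220-fold higher by the ratio of means. Its log2 change was 7.28 (SE 0.05, limma adjusted p = 3.58e-18).

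Gene_7122 rose from a moderate WT level to a place among the most abundant transcripts. It stood at 28.5, 30.1 and 30.6 FPKM in WT and at 3936, 4127 and 4079 FPKM in the Swd3 knockout. The 3 knockout libraries lay within a narrow band, 136-fold above WT by the ratio of means. The log2 change was 7.04 (SE 0.04, limma adjusted p = 1.48e-18).

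By the naming rule, the largest falls were those of gene_8145 and gene_4620, both well expressed in WT. Their high start is not a finding in itself. The pseudocount caps how far a gene at a low WT level can fall on this scale. The naming rule also sets a least mean level in the higher group. Gene_8145 stood at 122, 137 and 123 FPKM in WT and at 4.67, 4.90 and 5.63 FPKM in the knockout. Gene_4620 stood at 130, 128 and 131 FPKM in WT and at 5.77, 6.05 and 7.06 FPKM in the knockout. Both kept a low level in all 3 knockout libraries, 25.2-fold and 20.6-fold below WT by the ratio of means, with log2 changes of -4.41 (SE 0.09) and -4.17 (SE 0.07) and limma adjusted p of 1.17e-13 and 5.77e-14.

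In FPKM, rather than on the log2 scale, gains were gathered in fewer genes than losses. Between group means, rows that were higher in the Swd3 knockout gained 133042 FPKM in all, and rows that were lower lost a near equal sum (-132608 FPKM). Summed FPKM averaged 709424 in WT and 709858 in the knockout, so this near balance follows from the totals. The 100 largest gains held 60.5% of the summed gain, while the 100 largest losses held 38.5% of the summed loss. Of the 100 most abundant rows in WT, 77 were also among the 100 most abundant in the knockout.

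The 2 genes that gained most FPKM and the 2 that lost most were picked after their values were seen. Gene_2080 stood at 6095, 6692 and 5913 FPKM in WT and at 10299, 11035 and 11132 FPKM in the Swd3 knockout, a gain of 4589 FPKM and 1.74-fold (limma adjusted p = 1.92e-08). Gene_9254 stood at 3254, 3302 and 3148 FPKM in WT and at 7268, 7418 and 7165 FPKM in the knockout, 2.25-fold higher (limma adjusted p = 6.77e-12). Gene_7122, which rose 136-fold, followed them with a gain of 4017 FPKM.

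On the losing side, gene_7692 stood at 15938, 17278 and 15995 FPKM in WT and at 9877, 10052 and 9974 FPKM in the knockout. It lost more FPKM than any other row and fell by 0.72 on the log2 scale (limma adjusted p = 5.68e-09). Gene_5274 stood at 3942, 4340 and 3818 FPKM in WT and at 1712, 1930 and 1993 FPKM in the knockout (limma adjusted p = 3.96e-09). For each of these 4 genes the 2 groups did not overlap.

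**Figure D4:**
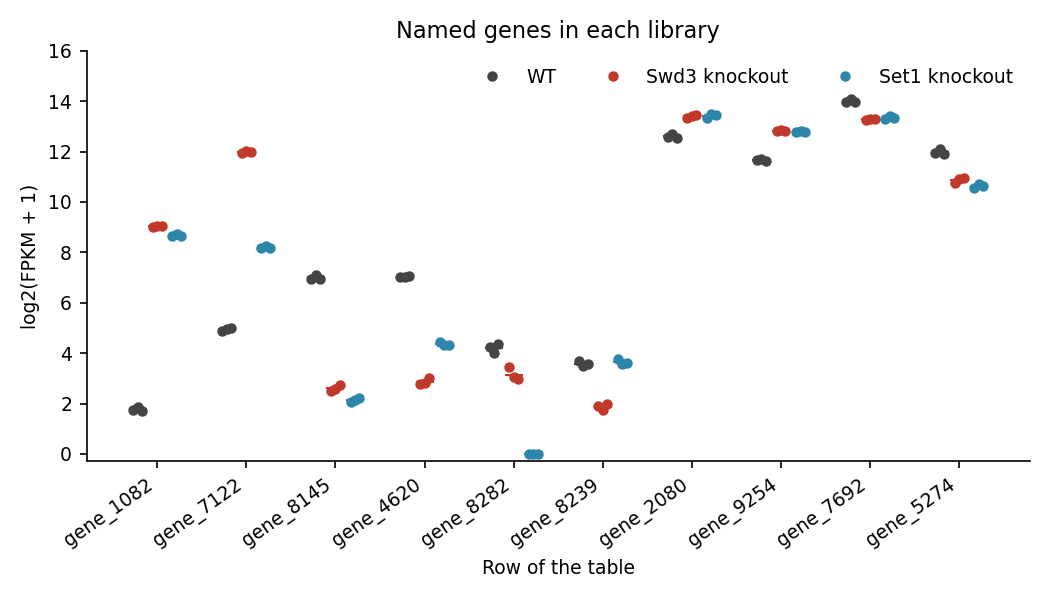
Level of the 10 named genes on log2(FPKM + 1) in each library of WT, the Swd3 knockout and the Set1 knockout, with 1 point per library and a line at the mean of the 3 libraries on this scale. Gene_1082 and gene_7122 are far higher and gene_8145 and gene_4620 far lower in the Swd3 knockout than in WT, while gene_8282 is at 0 in the Set1 knockout alone.

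Genes with neighbouring numbers moved alike. The table does not say that the numbers follow the genome, nor whether neighbours overlap, and reads of overlapping genes could not be separated. Across 7324 pairs of gene_ rows with consecutive numbers, the log2 changes had a Pearson r of 0.41 and a Spearman rho of 0.37. At a distance of 5 numbers r was 0.16, at 10 it was 0.10, and at 50 it was -0.01. These correlations are across genes measured in the same libraries and are given as a description.

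Having a neighbour by number more than 2-fold higher was more common among genes more than 2-fold higher, and likewise on the lower side. Of 876 gene_ rows more than 2-fold higher, 420 had a row with an adjacent number that was more than 2-fold higher too, or 47.9%, against 11.3% of the other gene_ rows. Of 435 more than 2-fold lower, 93 had such a neighbour on the lower side, or 21.4%, against 7.61% of the others. The longest run of consecutive numbers held 14 genes for rises and 4 for falls, and there were 12 runs of at least 5 rises and 0 of at least 5 falls. More rows rose than fell past 2-fold, and the directions were not tested against each other. Of all 936 genes more than 2-fold higher, 271 met the limit on low values only through the Swd3 knockout and had to be higher there. Of all 443 more than 2-fold lower, 4 met it only through WT. These counts take in NewGene_ rows. The gene_ rows of this kind were kept in the neighbour shares and runs, which were not recounted without them.

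The Swd3 knockout differed from the Set1 knockout at 13% of genes, mostly by less than 1.5-fold. In the direct comparison of both knockouts, 611 genes were higher in the Swd3 knockout, 6.77% of those tested, and 563 lower, 6.24% (limma, adjusted p under 0.05). The median absolute log2 difference among these was 0.33, and 59 were at least 1.5-fold higher and 84 at least 1.5-fold lower. More than 2-fold beyond their error were 4 higher, 0.0443% of those tested, and 2 lower, 0.0222%. For 8242 genes, or 91.3%, the whole 95% interval of the difference lay within 1.5-fold. These folds are of FPKM + 1 and understate differences of low genes. The library left out mattered here, with 362 higher and 368 lower without Swd3 replicate 2, 393 and 375 without Set1 replicate 3, and 407 and 421 without Set1 replicate 2. The balance of both directions was not stable. A common total gave 785 higher and 439 lower, the median of ratios 629 and 690, quantile normalization 754 and 780, and the fit without Swd3 replicate 1 gave 501 and 676.

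Differences between the knockouts were found most often among abundant genes. They passed for 38.1% of genes at 100 FPKM and over, 16.6% at 20 to 100 FPKM, 6.97% at 5 to 20 FPKM and 2.28% at 1 to 5 FPKM, against 13% of all genes. The median standard error fell over the same classes from 0.14 at 1 to 5 FPKM to 0.05 at 100 FPKM and over. At 100 FPKM and over 172 genes were higher and 243 lower in the Swd3 knockout.

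**Figure D5:**
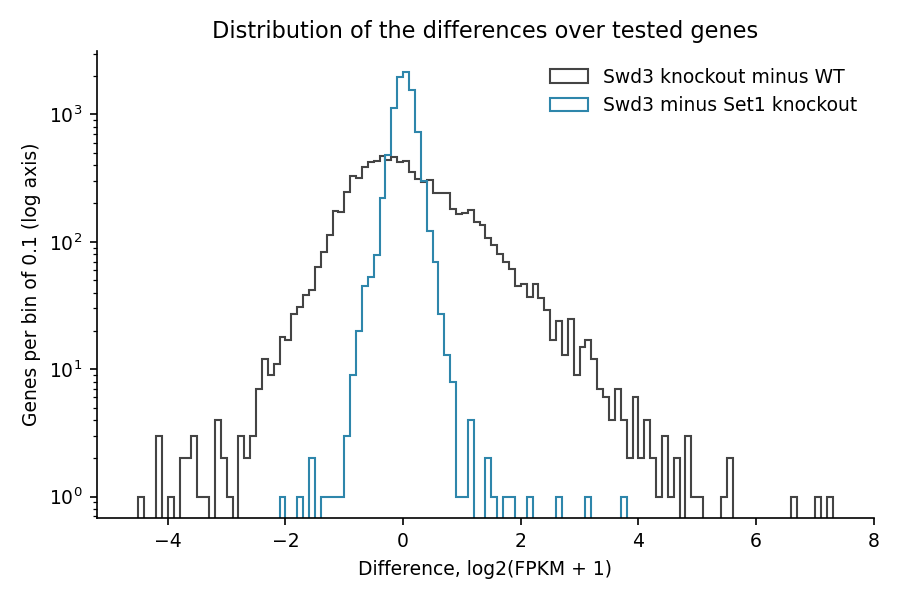
Number of genes per bin of 0.1 log2 units (log axis) for the difference of the Swd3 knockout from WT and from the Set1 knockout, on log2(FPKM + 1). The differences from the Set1 knockout are gathered near 0, with 5th and 95th percentiles of -0.30 and 0.32, against -1.24 and 1.86 for the differences from WT.

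By the same naming rule, gene_7122 had the largest difference between the knockouts. It stood at 284, 302 and 285 FPKM in Set1 knockout libraries 1 to 3, between its WT and Swd3 knockout levels and 13.9-fold below the latter (limma adjusted p = 3.9e-15). Gene_8282 stood at 17.9, 15.2 and 19.8 FPKM in WT, at 9.94, 7.20 and 6.75 FPKM in the Swd3 knockout and at a listed 0 in each Set1 knockout library. Relative to WT it fell in the Swd3 knockout by 1.07 on the log2 scale (SE 0.14, limma adjusted p = 8.7e-06). The levels of these genes thus fell into separate bands in the 3 strains.

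The genes lower in the Swd3 than in the Set1 knockout were led by gene_8239 and gene_4620. Gene_8239, the row that kept least in the check of the knockout label, stood at 11.8, 10.2 and 10.9 FPKM in WT. It stood at 12.6, 10.7 and 11.1 FPKM in the Set1 knockout and at 2.76, 2.31 and 2.92 FPKM in the Swd3 knockout. Its difference between the knockouts was -1.77 log2 units (SE 0.10, limma adjusted p = 1.23e-07), and that of the Set1 knockout from WT was 0.06 with a 95% interval of -0.16 to 0.28. Gene_4620 stood at 20.9, 18.9 and 19.1 FPKM in the Set1 knockout, below WT and above the Swd3 knockout. Its difference between the knockouts was -1.50 log2 units (limma adjusted p = 7.27e-08).

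Of the 4 genes that gained or lost most FPKM, 3 did not pass between the knockouts. Gene_2080 stood at 10293 to 11496 FPKM and gene_9254 at 7037 to 7228 FPKM in the Set1 knockout, and neither difference from the Swd3 knockout passed. The 95% intervals of these differences were -0.14 to 0.10 and -0.04 to 0.11 log2 units. For gene_7692 the interval was -0.16 to 0.03. Gene_5274 was higher in the Swd3 knockout by 0.23 log2 units (limma adjusted p = 0.032). Gene_1082 was higher in the Swd3 knockout by 0.37 log2 units (SE 0.05, limma adjusted p = 0.00026), with 398 to 421 FPKM in the Set1 knockout.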

How the data were processed

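The authors deposited 1 table of FPKM values, 1 column for each library. FastQC, HISAT2 and StringTie were used, per the submitters' processing notes. Their versions, the build, the annotation and any use of strand were not given in the sources used here. Low values show no steps of whole reads (for 70 genes under 0.15 FPKM in both of the first WT libraries, their ratios fell into 31 bins of 0.1 log2 units), so no counts, counting intervals or detection floors were computed. Groups and replicate numbers came from the sample titles.

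Values were taken as log2(FPKM + 1) without further scaling. Group means were estimated from all 9 libraries in a linear model (limma 3.58.1 under R 4.3.3, moderated variances with a trend on mean level), for the 9028 rows that met the limit on low values. P-values are two-sided, adjusted by Benjamini-Hochberg over these rows, with a threshold of 0.05. The function treat tested changes against 2-fold. The code was tested on simulated data. Library measures were compared by exact permutation tests in scipy 1.17.1. The members, tests and the naming rule (for each comparison at most 2 rises and 2 falls, with an adjusted p under 0.05, a mean of at least 5 FPKM in the higher group and no overlap) were chosen with earlier results of these data known. The lists of COMPASS, pigment and citrinin genes had 0 members, since no row has a name.

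Alternatives covered the pseudocount, the limit on low values, 3 scalings, robust moderation of the variances, a model of only the compared groups, a block for the replicate number, and the removal of each library in turn.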

Additional observations from a re-analysis of the deposited data

Results flagged for a closer look

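The Swd3 and Set1 knockouts differed from each other at 1174 genes by the direct test (limma, adjusted p under 0.05), 13% of those tested. Among the named genes, the Swd3 minus Set1 difference on log2(FPKM + 1) was 3.80 for gene_7122, 3.15 for gene_8282, 0.47 for gene_8145, 0.37 for gene_1082, 0.23 for gene_5274, -1.50 for gene_4620 and -1.77 for gene_8239. The values for gene_7122, gene_8282, gene_4620 and gene_8239 restate the rule that chose them. For gene_8282 the Set1 knockout was listed at 0, and its value was 6.31 with a pseudocount of 0.1. Groups of 3 libraries are too small for a test of single outlying libraries.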

How the results depend on the processing

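The counts of genes that rose and fell against WT, and of those more than 2-fold higher and lower, stayed within 1.5 times of the reported ones under all alternatives. With single libraries left out they ranged from 3265 to 3398 rises, 3673 to 4008 falls, 862 to 931 genes more than 2-fold higher and 384 to 483 more than 2-fold lower. The counts between the knockouts ranged from 362 to 664 higher and 368 to 676 lower. By class of level, quantile normalization gave 53 rises and 9 falls under 1 FPKM and 566 rises and 550 falls at 1 to 5 FPKM, and testing without a limit on low values gave 395 rises and 21 falls under 1 FPKM. All 192 recomputed log2 values of the named genes kept their direction and their side of the threshold. The genes named on the log2 scale had been chosen among those that passed it. Differences between the knockouts were recomputed only for gene_7122, gene_8282, gene_8239 and gene_4620. Those of gene_5274, gene_1082 and gene_8145 were not recomputed. All 70 recomputed differences between libraries' summary measures kept their direction. The cause of the changes under quantile normalization was not tested. With the replicate number as a block 3449 genes rose and 3970 fell against WT, and 713 were higher and 654 lower than in the Set1 knockout. The numbers were not taken as a pairing, because deviations of same-numbered WT and Swd3 knockout libraries correlated at 0.07, 0.07 and -0.13 (0.31, 0.05 and 0.26 with the Set1 knockout), and 1 of 3 Swd3 libraries correlated best with its own number in WT and 2 of 3 in the Set1 knockout. Depth is unknown and limits what can be said of rows near 0.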
